A study of Homo sapiens with 72 samples.

Results

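Hypoxia and glycolysis genes were examined as a set of 10 named genes: ADM, VEGFA, PFKFB3, PFKFB4, HK2, SLC2A1, LDHA, PDK1, BNIP3 and PGK1. They were the rows of the raw count table that carried these symbols, 10 of 44659 genes. Rows were matched by symbol alone, but the set was chosen with earlier results of these data known. The data were 72 QuantSeq libraries, which read the 3′ end of polyadenylated RNA, made from the cytoplasmic RNA of the established human melanoma line A375. Cells transfected for 42 h with a pool of 2 siRNAs against CTU2 (siCTU2) or with the control siRNA siGL2 formed one experiment, and cells grown for 18 h without glutamine (mQ) or with the control medium (pQ) formed the other. In all 4 conditions, cells were collected at 0, 3 and 5 h of 25 µM triptolide, which blocks transcription, either alone (T arm) or with 100 µg/ml cycloheximide, an inhibitor of translation (TCHX arm). There were thus 24 groups with 3 libraries in each. Nothing in the labels ties the replicates to separate cultures, so the tests measure the spread between these libraries.

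When oxygen is low, the transcription factor HIF, made of an oxygen-regulated alpha subunit and ARNT, switches on genes that bring in glucose, speed up glycolysis and call for new vessels. ADM (adrenomedullin) and VEGFA (vascular endothelial growth factor A) are its secreted targets. SLC2A1 is the main glucose transporter, HK2 traps glucose as glucose 6-phosphate, and PFKFB3 and PFKFB4 set the level of fructose 2,6-bisphosphate, an activator of glycolysis. PGK1 and LDHA catalyse later steps, PDK1 holds pyruvate back from mitochondria and BNIP3 promotes removal of mitochondria. Tumour cells, melanoma included, often express these genes at normal oxygen. The cultures were not described as hypoxic, so the comparisons describe these genes under CTU2 knock-down or glutamine withdrawal.

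In the GENCODE annotation of GRCh38, ADM lies on chromosome 11 (10305073 to 10307397, plus strand) and PFKFB4 on chromosome 3 (48517684 to 48562015, minus strand). PFKFB3 lies on chromosome 10 (6144934 to 6254644, plus strand) and VEGFA on chromosome 6 (43770184 to 43786487, plus strand). SLC2A1 lies on chromosome 1 (42925353 to 42958893, minus strand), HK2 on chromosome 2 (74834127 to 74893359, plus strand) and PDK1 on chromosome 2 (172555373 to 172608669, plus strand). BNIP3 lies on chromosome 10 (131967684 to 131981967, minus strand) and PGK1 on chromosome X (77910739 to 78129295, plus strand). LDHA lies on chromosome 11 (18394560 to 18408425, plus strand).

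The core sequence that HIF binds is ACGTG or GCGTG, and promoters were searched for both on both strands in RefSeq windows of 300 bases (250 before and 50 after the start, GRCh38.p14). At least 1 match was found in 48.4% of 35116 windows, 21.4% holding ACGTG and 36.5% GCGTG. Of the 10 genes, 9 matched the table, with 13 windows, and VEGFA did not. A match was found in 12 of the 13 windows and in at least 1 window of each of the 9 genes. The counts ranged from 0 in one PDK1 window to 6 in windows of HK2, LDHA and BNIP3, and 0.923% of all windows had at least 6. The windows of ADM and PFKFB4, whose mRNAs fell most after triptolide, and of BNIP3 and PGK1, whose mRNAs fell little, are printed 5′ to 3′ with matches in capitals; a match on both strands at once, as in the palindrome CACGTG, counted as 2. ADM and PFKFB4 had 1 match each, PGK1 had 4 and BNIP3 had 6.
ADM promoter, chr11:10304823-10305122, plus strand: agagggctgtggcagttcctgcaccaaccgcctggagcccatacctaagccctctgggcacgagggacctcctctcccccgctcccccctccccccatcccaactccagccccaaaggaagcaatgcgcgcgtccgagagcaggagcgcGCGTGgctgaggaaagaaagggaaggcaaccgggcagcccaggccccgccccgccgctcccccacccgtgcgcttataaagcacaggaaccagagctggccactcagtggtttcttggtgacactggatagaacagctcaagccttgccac
PFKFB4 promoter, chr3:48556754-48557053, minus strand: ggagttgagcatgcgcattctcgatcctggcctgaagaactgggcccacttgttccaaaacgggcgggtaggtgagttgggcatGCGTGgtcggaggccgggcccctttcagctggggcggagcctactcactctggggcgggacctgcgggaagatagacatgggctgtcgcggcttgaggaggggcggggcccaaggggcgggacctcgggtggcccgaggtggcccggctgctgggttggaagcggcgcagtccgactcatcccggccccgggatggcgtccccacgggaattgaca
PGK1 promoter, chrX:78103998-78104297, plus strand: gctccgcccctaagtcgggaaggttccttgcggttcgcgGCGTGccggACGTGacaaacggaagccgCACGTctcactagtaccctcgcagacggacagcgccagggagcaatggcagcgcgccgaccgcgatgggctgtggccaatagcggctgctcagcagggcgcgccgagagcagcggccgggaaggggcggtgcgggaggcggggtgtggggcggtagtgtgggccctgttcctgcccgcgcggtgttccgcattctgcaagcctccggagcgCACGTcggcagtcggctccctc
BNIP3 promoter, chr10:131981874-131982173, minus strand: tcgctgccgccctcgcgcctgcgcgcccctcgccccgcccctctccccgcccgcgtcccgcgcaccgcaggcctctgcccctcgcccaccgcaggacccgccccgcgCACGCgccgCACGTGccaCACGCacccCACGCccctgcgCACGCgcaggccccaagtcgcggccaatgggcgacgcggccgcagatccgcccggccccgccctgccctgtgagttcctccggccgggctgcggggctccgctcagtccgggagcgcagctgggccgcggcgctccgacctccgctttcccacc

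Short-lived mRNAs often carry AU-rich elements in the 3′ UTR, whose letters are the pentamer ATTTA or the longer nonamer TTATTTATT. Among 18780 MANE Select 3′ UTRs, 68.3% held the pentamer and 8.6% the nonamer on the transcript strand. VEGFA held 10 pentamers in 1925 bases, a number reached by 7.27% of 2669 3′ UTRs of similar length (from 0.8 times to 1.25 times). ADM held 3 in 756 bases (24% of 2116 similar 3′ UTRs had as many), PFKFB3 held 5 in 2590 bases (59.3% of 2518) and PFKFB4 held 0 in 2063 bases, where 90.6% of 2648 similar 3′ UTRs held at least 1. The nonamer occurred once each in VEGFA and PFKFB3 and was not found in the other 8 genes. BNIP3, whose mRNA fell little, held 4 pentamers in 840 bases. A match is a description of letters only. The nonamers of VEGFA and PFKFB3 and the pentamers nearest the 3′ end of ADM and BNIP3 are shown in capitals.
VEGFA 3′ UTR, chr6:43786286-43786314, plus strand: ttgttatcatTTATTTATTggtgctactg
PFKFB3 3′ UTR, chr10:6235286-6235314, plus strand: gatgtgctatTTATTTATTtaatatgtat
ADM 3′ UTR, chr11:10307331-10307355, plus strand: tgtataatctATTTAcataaaatgg
BNIP3 3′ UTR, chr10:131967796-131967820, minus strand: gcattggtgaATTTAatcctctcct

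Libraries held 5987692 to 15534331 counts. CTU2 had 1.76 ± 1.04 CPM (counts scaled to equal library totals, SD, n = 3) in siCTU2 and 22.5 ± 1.58 CPM in siGL2 at 0 h. Markers of the melanocyte lineage, as labelled, summed to 1039 to 1529 CPM at 0 h, and 8 of the 10 were detected in every 0 h library. Most of the sum came from SOX10 (205 to 424 CPM), MITF (95.0 to 377), S100B (241 to 377) and ERBB3 (187 to 442). The pigment cell markers were low: MLANA at 0 to 0.866 CPM, TYR at 0 to 1.16, TYRP1 at 0.0941 to 1.79 and PMEL at 2.21 to 9.75. Counts were found for 15507 to 17495 genes in 69 libraries but for 19896 to 20364 genes in 3, all replicate 3. They were the libraries labelled siCTU2 TCHX 5 h, mQ T 5 h and pQ TCHX 0 h. In these 3 the 5 blood cell markers summed to 63.8 to 64.9 CPM, with PTPRC at 31.1 to 32.6 CPM and CD3E at 31.1 to 32.6 CPM, against 0 to 1.58 CPM for the list elsewhere. The 5 fibroblast markers summed to 12.7 to 17.3 CPM in them and to 3.47 to 14.6 CPM elsewhere. CD79A, LYZ and HBB were below 0.5 CPM in all 3. CTU2 was at 10.4 CPM in the first of them, and the other 17 siCTU2 libraries had 0.133 to 2.95 CPM. The part of these libraries in each result was not tested beyond leaving them out, and the main comparisons that rest on them are given with and without them or by replicate. In bulk samples, fewer cells of a type and less RNA per cell cannot be told apart.

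LDHA, which makes lactate from pyruvate, could not be followed. Its row held 13 counts in 11 of the 72 libraries, at most 3 in any library. A row named LDHA_1 held 850 counts, 1 to 28 per library. Reads that match both this gene and a near-identical copy may have been split or set aside in counting, so neither row was taken as the level of LDHA. The other 9 genes passed the filter on low counts in every fit, with mean levels over groups from 0.582 CPM for ADM to 607 CPM for PGK1. The results that follow are of these 9 genes. QuantSeq gives about 1 read per transcript, so levels were not divided by length, and reads at internal priming sites were not tested.

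The first question was whether CTU2 knock-down changed the steady levels of these mRNAs. ADM, VEGFA and SLC2A1 rose and PFKFB3, PFKFB4, HK2 and PDK1 fell in siCTU2 as compared to siGL2 at 0 h (T arm, edgeR with TMM scaling, adjusted p under 0.05). Thus 7 of 9 genes passed the test, 3 higher and 4 lower. Of all 12292 genes tested, 17.8% were higher and 18.2% lower. BNIP3 and PGK1 did not pass.

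Among the secreted factors, ADM was at 63.7, 64.2 and 52.8 CPM in the 3 siCTU2 libraries and at 41.8, 42.9 and 41.7 CPM in siGL2. All siCTU2 libraries were above all siGL2 libraries, and ADM was 1.42-fold higher (log2 fold change 0.51, SE 0.11, adjusted p = 0.00104). VEGFA was at 32.6, 34.9 and 27.3 CPM in siCTU2 and at 20.7, 25.5 and 26.1 CPM in siGL2. The lowest siCTU2 library lay just above the highest siGL2 library (log2 fold change 0.39, SE 0.14, adjusted p = 0.0393). This was the weakest of the calls: without 1 library it was lost in 4 of 6 cases, with adjusted p up to 0.186, and with DESeq2 it was at 0.0668.

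The mRNAs of the glucose transporter and of the hexokinase moved in opposite directions. SLC2A1 was at 163, 161 and 125 CPM in siCTU2 and at 97.4, 100.4 and 91.1 CPM in siGL2, without overlap (log2 fold change 0.63, SE 0.098, adjusted p = 6.18e-05). HK2 was at 58.8, 46.6 and 58.3 CPM in siCTU2 and at 88.4, 75.5 and 87.0 CPM in siGL2. It was 1.53-fold lower in siCTU2, again without overlap (log2 fold change -0.62, SE 0.11, adjusted p = 1.81e-04).

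The pair of bifunctional enzymes fell together. PFKFB3, which mainly makes fructose 2,6-bisphosphate, was at 80.2, 61.7 and 77.8 CPM in siCTU2 and at 131, 121 and 121 CPM in siGL2. It had the largest fall of the 9 genes, 1.70-fold (log2 fold change -0.77, SE 0.098, adjusted p = 6.86e-06). PFKFB4 was at 62.1, 60.0 and 68.3 CPM in siCTU2 and at 99.7, 92.4 and 109 CPM in siGL2 (log2 fold change -0.66, SE 0.093, adjusted p = 1.98e-05). No siCTU2 library reached the siGL2 range for either gene. PDK1, an inhibitory kinase of pyruvate dehydrogenase, was at 21.9, 20.9 and 23.2 CPM against 30.4, 33.0 and 36.1 CPM (log2 fold change -0.59, SE 0.13, adjusted p = 0.00138).

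BNIP3 was at 50.6, 62.5 and 57.3 CPM in siCTU2 and at 45.9, 61.8 and 59.9 CPM in siGL2, and the groups overlapped (log2 fold change 0.02, SE 0.12). PGK1, the most abundant of the 9 mRNAs in counts, was at 532, 486 and 508 CPM against 543, 567 and 553 CPM. The siCTU2 libraries lay below the siGL2 libraries, but the difference did not pass the test (log2 fold change -0.13, SE 0.062, adjusted p = 0.125).

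The TCHX arm provided another 3 libraries per condition collected at 0 h. There, all 7 calls passed again in the same direction, from log2 fold changes of 0.63 for ADM to -0.90 for PFKFB4. PGK1 also passed, at 444 to 473 CPM in siCTU2 and 572 to 620 CPM in siGL2 (log2 fold change -0.35, SE 0.07, adjusted p = 5.45e-04). In that arm 8 of 9 genes passed, as did 4651 of 12507 genes in all.

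**Figure D1:**
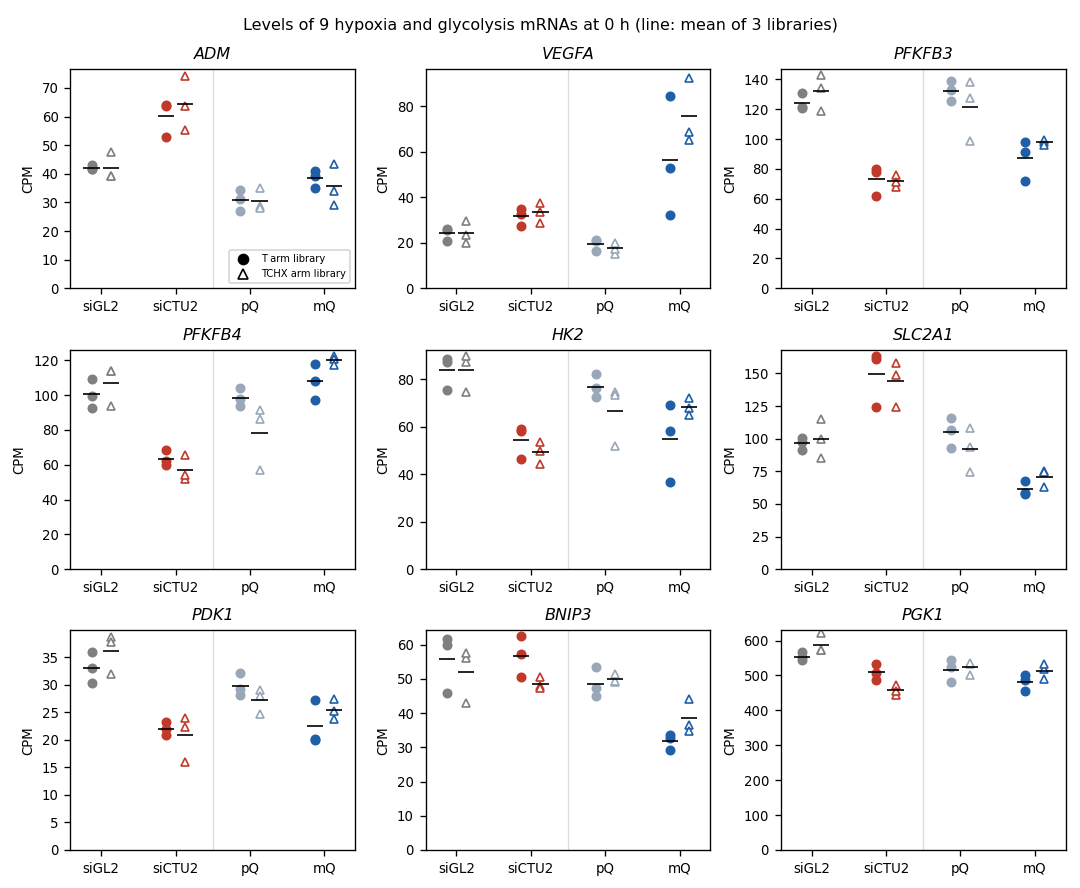
Level of each of the 9 genes at 0 h in CPM (vertical axis, from 0) in siGL2, siCTU2, pQ and mQ; filled circles are T arm libraries, open triangles TCHX arm libraries and lines the mean of 3 libraries. PFKFB3, PFKFB4 and HK2 are lower in every siCTU2 library than in any siGL2 library, and VEGFA is highest in mQ.

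Glutamine withdrawal gave another pattern. VEGFA rose and PFKFB3, SLC2A1 and BNIP3 fell in mQ as compared to pQ at 0 h, so that 4 of 9 genes passed, 1 higher and 3 lower. Of 12374 genes tested, 12.5% were higher and 12.4% lower.

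VEGFA was at 53.0, 32.2 and 84.4 CPM in mQ and at 20.6, 16.6 and 21.1 CPM in pQ. The mQ libraries spread widely, but each was above the pQ libraries, and VEGFA was 3.01-fold higher (log2 fold change 1.59, SE 0.28, adjusted p = 0.00217). In the TCHX arm at 0 h, VEGFA was at 65.3 to 92.5 CPM in mQ and at 15.2 to 20.1 CPM in pQ (log2 fold change 2.11, SE 0.17, adjusted p = 2.58e-04). ADM, the other secreted factor, was at 35.0, 39.4 and 41.1 CPM in mQ and at 31.3, 26.9 and 34.2 CPM in pQ, and did not pass (log2 fold change 0.37, SE 0.14, adjusted p = 0.0725).

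SLC2A1 was at 57.9, 58.7 and 67.8 CPM in mQ and at 107, 116 and 92.8 CPM in pQ, without overlap (log2 fold change -0.72, SE 0.12, adjusted p = 0.00183). BNIP3 was at 33.7, 29.3 and 32.7 CPM in mQ and at 44.9, 47.4 and 53.5 CPM in pQ (log2 fold change -0.56, SE 0.13, adjusted p = 0.0093). PFKFB3 was at 97.8, 72.02 and 91.5 CPM against 126, 133 and 139 CPM (log2 fold change -0.55, SE 0.12, adjusted p = 0.00762). In all of these, every mQ library was below every pQ library.

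PFKFB4 was at 118, 97.4 and 108 CPM in mQ and at 97.9, 93.5 and 104 CPM in pQ, and the ranges overlapped (log2 fold change 0.18, SE 0.11, adjusted p = 0.238). HK2 was at 58.0, 36.8 and 69.0 CPM against 76.1, 82.0 and 72.5 CPM (adjusted p = 0.0968), and PDK1 at 20.2, 19.98 and 27.3 CPM against 29.3, 28.1 and 32.2 CPM (adjusted p = 0.129). Both passed when mQ replicate 3 was left out, at 0.0147 and 0.0286, and HK2 without the filter on low counts, at 0.00852. In the TCHX arm at 0 h neither passed, with log2 fold changes of 0.06 for HK2 (adjusted p = 0.846) and -0.08 for PDK1 (adjusted p = 0.798). PGK1 was at 501, 455 and 488 CPM in mQ and at 525, 545 and 480 CPM in pQ (log2 fold change -0.05, SE 0.093).

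In the TCHX arm at 0 h, where pQ replicate 3 is one of the 3 libraries with blood cell markers, 2 of the 9 genes passed, VEGFA and PFKFB4, as did 810 of 12521 genes in all. Without that library, 2555 of 12715 genes and 4 of the 9 passed: VEGFA (log2 fold change 2.23), PFKFB4 (0.47) and, lower, SLC2A1 (-0.48) and PFKFB3 (-0.41). BNIP3 had a log2 fold change of -0.32 there and an adjusted p of 0.0937, so its fall was called in the T arm and not in the TCHX arm.

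**Figure D2:**
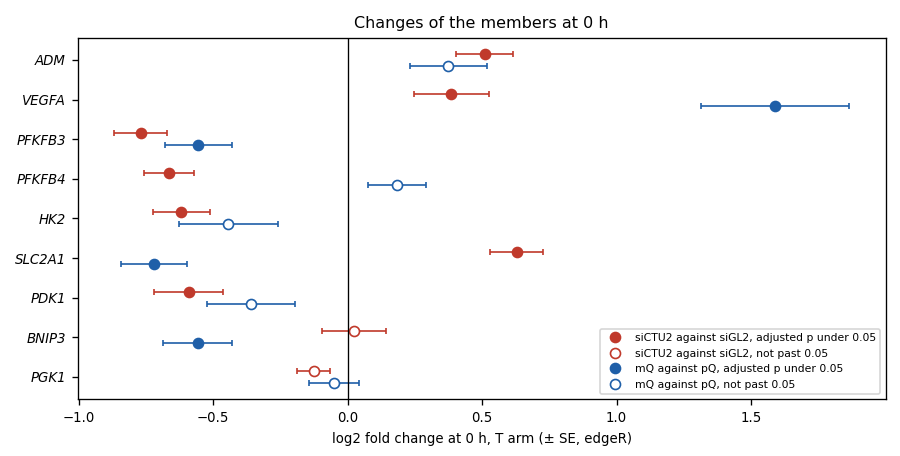
Log2 fold change at 0 h in the T arm (horizontal axis, ± SE from edgeR, 3 against 3 libraries) for 9 genes in siCTU2 against siGL2 (red) and mQ against pQ (blue); filled points have an adjusted p under 0.05. SLC2A1 lies at 0.63 in red and -0.72 in blue, and VEGFA reaches 1.59 in blue.

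The responses to the 2 treatments were then compared directly, as the log2 fold change in siCTU2 minus that in mQ. The difference passed for 4 of 9 genes, and for 32% of 12950 genes. Of the 9 genes, SLC2A1 had the largest difference in the T arm, 1.35 (SE 0.17, adjusted p = 7.35e-06). VEGFA differed by -1.2 (SE 0.34, adjusted p = 0.0106), PFKFB4 by -0.85 (SE 0.14, adjusted p = 1.94e-04) and BNIP3 by 0.58 (SE 0.18, adjusted p = 0.0209). For PFKFB3, HK2 and PDK1 the differences were -0.21 (SE 0.17), -0.18 (SE 0.23) and -0.23 (SE 0.20) and did not pass, and for ADM the difference was 0.13 (SE 0.17). The TCHX arm at 0 h gave other values: VEGFA (-1.64) and PFKFB4 (-1.54) had larger differences than SLC2A1 (0.90), and HK2 (-0.82), PDK1 (-0.71), PFKFB3 (-0.58) and PGK1 (-0.34) also passed, with adjusted p of 0.00368, 0.0267, 0.0142 and 0.0213. There 7 of 9 genes and 3067 of 13194 genes in all passed. That arm includes pQ replicate 3 with blood cell markers, and the difference without it was not run. The experiments differed in the kind and length of treatment, which cannot be told apart from the treatment itself.

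Other genes of the same pathways were counted in lists. Of all genes tested, 17.8% were higher and 18.2% lower in siCTU2, and 12.5% and 12.4% in mQ. Among 8 tested genes of the HIF pathway itself, 2 were higher and 2 lower in siCTU2. HIF1A, which encodes the main alpha subunit, was at 146 ± 6.43 CPM in siGL2 and rose to 216 ± 28.3 CPM (adjusted p = 6.57e-05, log2 fold change 0.57, SD over 3 libraries), and EGLN1, the prolyl hydroxylase that marks it for destruction, rose with a log2 fold change of 1.1. EPAS1, another alpha subunit, fell by 1.5 on the log2 scale, at 4.48 CPM in siGL2, and ARNT2 fell by 0.68. ARNT did not pass (log2 fold change -0.15). In mQ, 2 of 7 tested genes rose, VHL (0.68) and HIF1AN (0.45), both negative regulators of HIF. HIF1A was at 136.5 ± 1.78 CPM in mQ and 136.3 ± 15.4 CPM in pQ (log2 fold change 0.06), and EPAS1 (-0.09) and ARNT (-0.23) did not pass.

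Among 17 tested genes of a list of other HIF targets, 3 rose and 5 fell in siCTU2, and 5 rose and 3 fell in mQ. The shares of all genes were 17.8% and 18.2% in siCTU2 and 12.5% and 12.4% in mQ. The median log2 fold changes of the list were -0.14 and -0.13, and those of all genes tested were 0.00478 and 0.00975. BHLHE40, a transcriptional repressor, fell by 2.05 on the log2 scale in siCTU2 and AK4, a mitochondrial adenylate kinase, by 1.06. STC2 and ANGPTL4, both secreted, rose in siCTU2 (1.24 and 1.17) and in mQ (1.94 and 1.68). DDIT4, an inhibitor of mTORC1, was at 39.5 ± 9.55 CPM in pQ and rose to 276 ± 48.1 CPM in mQ (adjusted p = 1.95e-06, log2 fold change 2.85). ERO1A, an oxidase of the endoplasmic reticulum, fell in mQ (-0.62).

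Of 15 other glycolysis genes tested, 2 rose and 7 fell in siCTU2, and 4 rose and 0 fell in mQ. For this list and the next, 17.8% of all genes rose and 18.2% fell in siCTU2, and 12.5% and 12.4% in mQ. The median log2 fold changes of the glycolysis list were -0.06 and 0.10. GPI and PGAM1 are among the genes tested but had low levels, 3.44 ± 0.98 and 2.58 ± 0.15 CPM in siGL2, and passed in neither comparison. Whether their reads were set aside in counting, as may have happened for LDHA, was not tested. In siCTU2, PFKFB2, of the same family as PFKFB3, fell (-0.95), as did the enolase ENO2 (-0.56) and the aldolase ALDOC (-0.55), while TIGAR, which breaks down fructose 2,6-bisphosphate, rose (0.56). In mQ, PFKFB2 (0.88), the glucose transporter SLC2A3 (0.84), the pyruvate kinase PKM (0.55) and GAPDH (0.47) rose. Of 10 genes of lactate and pyruvate handling tested in siCTU2, 1 rose and 2 fell. PDK4, a relative of PDK1, was at 33.6 ± 11.5 CPM in siGL2 and fell to 7.69 ± 2.97 CPM (adjusted p = 2.53e-06, log2 fold change -2.11), PDP1, the phosphatase that opposes these kinases, rose (1.19), and the pyruvate carrier MPC1 fell (-0.56). Of 11 tested in mQ, 1 fell, PDHB (-0.49), a subunit of pyruvate dehydrogenase.

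The time courses asked how fast each mRNA was lost once transcription was blocked. Counts were scaled to stable genes, whose share of a library rose after triptolide, and the level at each time is given as a percentage of the 0 h library of the same arm and replicate number. On this scale the median log2 change of all genes from 0 to 3 h in the T arm was -0.55 in siCTU2, -0.47 in siGL2, -0.71 in mQ and -0.69 in pQ, while TMM scaling put it between -0.00209 and 0.0141. Changes are therefore read beside the median of all genes.

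ADM, PFKFB4, PFKFB3 and VEGFA fell in all 4 conditions. The test from 0 to 3 h was passed by 4 of 9 genes in siCTU2 and in siGL2, by 6 in mQ and by 7 in pQ. Of all genes, 36% were lower in siCTU2, 28.6% in siGL2, 55.4% in mQ and 55.2% in pQ.

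ADM fell most of the 9 genes. After 3 h of triptolide, 7.04%, 14.7% and 8.24% of the 0 h level remained in siCTU2 and 4.96%, 3.98% and 3.53% in siGL2. In mQ 0.449%, 1.03% and 2.47% remained, and in pQ 1.64%, 2.64% and 0.718%. All siCTU2 libraries were above all libraries of the other 3 conditions. The log2 changes were -3.32 (SE 0.35), -4.57 (SE 0.27), -6.07 (SE 1.09) and -5.99 (SE 0.46) in siCTU2, siGL2, mQ and pQ (adjusted p between 2.53e-08 and 7.16e-04), and in pQ 26 of 13347 genes had a more negative change. At these low counts the T arm held between 0.226 and 1.70 CPM in mQ at 3 h.

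PFKFB4 was next. At 3 h, 13.4%, 19.5% and 16.1% remained in siCTU2, 17.5%, 21.9% and 19.6% in siGL2, 18.3%, 18.8% and 18.3% in mQ and 15.05%, 13.1% and 14.4% in pQ. The replicates were tight and the conditions close, with log2 changes between -2.81 and -2.35 (SE 0.26 to 0.32). PFKFB3 had 27.9% ± 5.33 to 39.6% ± 14.4 left (SD, n = 3), with log2 changes between -1.86 and -1.39. VEGFA had 34.7% ± 12.8 to 46.0% ± 13.3 left, with log2 changes between -1.65 and -1.13. For PFKFB3 the lower value was in mQ and for VEGFA in pQ, and the siCTU2 libraries alone spread from 30.3% to 56.2% and from 30.8% to 55.5%. Under TMM scaling the fall of VEGFA passed in no condition (adjusted p from 0.0529 to 0.0751), and that of PFKFB3 passed in all but pQ (0.0591). Those of ADM and PFKFB4 passed in all 4.

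By 5 h, ADM was down to 3.74% ± 2.08 in siCTU2, 1.73% ± 0.589 in siGL2 (SD, n = 3), and to 0%, 1.295% and 2.397% in the pQ libraries. In mQ, replicates 1 and 2 had 0.835% and 0.781% left and replicate 3 had 36.1%. That library, mQ T 5 h replicate 3, is one of the 3 with blood cell markers, and it held 20.6 CPM of ADM against 0.393 and 0.451 CPM in the other two. Its PFKFB3 was also high, at 57.5% against 19.9% and 21.6%, and its PFKFB4 at 28.6% against 9.17% and 11.99%. In siCTU2, siGL2 and pQ, replicate 3 of the T arm at 5 h was instead the lowest for every one of the 9 genes but ADM. For HK2 it was at 10.7%, 16.1% and 12.8%, against 45.1% to 83.3% in the other replicates. For PGK1 it was at 31.8%, 50.8% and 45.2%, against 66.7% to 89.4%. Replicate 3 also stood apart there over the counts as a whole. Its chi-square per degree of freedom against replicates 1 and 2 was 84.1 to 103. Between replicates 1 and 2 it was 6.53 to 8.41.

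**Figure D3:**
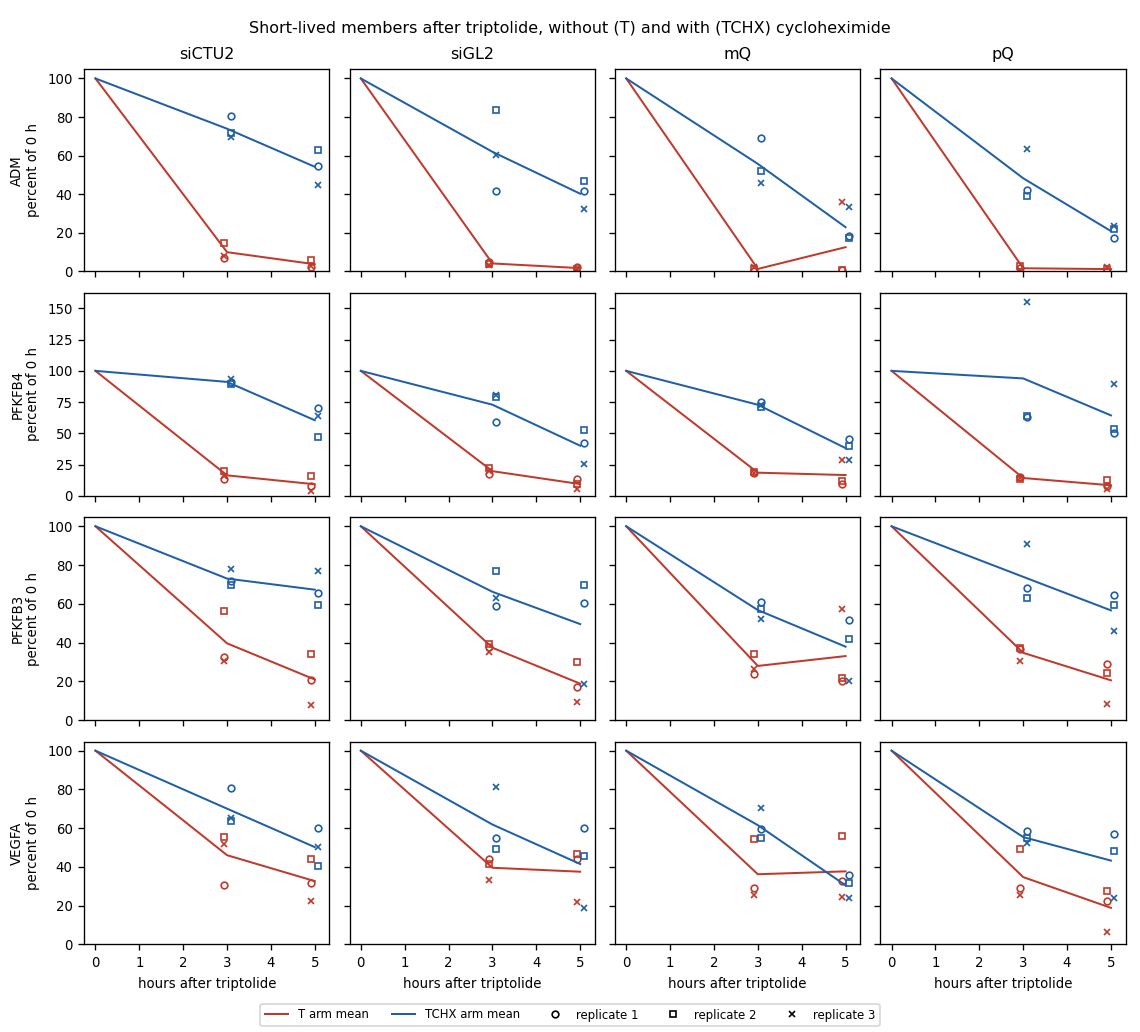
Percentage of the 0 h level (vertical axis, from 0) against hours after triptolide for ADM, PFKFB4, PFKFB3 and VEGFA in 4 conditions, scaled to stable genes; red is the T arm, blue the TCHX arm, lines join means of 3 replicates and symbols mark replicates. ADM in the T arm is at 10.0% or less at 3 h on average, and in the TCHX arm it is at 48.3% to 74.0%.

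At 3 h, more of these 4 mRNAs remained on average in every condition when cycloheximide was present. At 5 h this held except for VEGFA in mQ, with 30.5% left with cycloheximide and 37.7% without. The effect of cycloheximide was tested as the mean difference between the TCHX and T arms at 3 and 5 h. It was higher with cycloheximide for 4 of 9 genes in siCTU2 and for 3 of 9 in siGL2, mQ and pQ, and 0 of 9 were lower. Of all genes, 21% were higher in siCTU2, 12.1% in siGL2, 5.12% in mQ and 12.3% in pQ. The genes that passed were ADM and PFKFB4 in all 4 conditions, PFKFB3 in siCTU2, siGL2 and pQ, and VEGFA in siCTU2 and mQ.

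With cycloheximide, 80.5%, 71.8% and 69.6% of ADM remained at 3 h in siCTU2 and 41.9%, 83.6% and 60.5% in siGL2. In mQ 69.2%, 52.3% and 45.8% remained, and in pQ 42.0%, 39.1% and 63.7%. The lowest of these 12 values lay far above the highest T arm value, 14.7%. The log2 effects of cycloheximide on ADM were 3.39 (SE 0.26), 4.24 (SE 0.20), 2.85 (SE 0.68) and 4.45 (SE 0.33) in siCTU2, siGL2, mQ and pQ, with adjusted p of 6.11e-08, 8.21e-10, 0.022 and 6.81e-08. In pQ, 9 of 13347 genes had a larger effect. Without mQ T 5 h replicate 3, a choice made after seeing the data, the effect in mQ was 4.97 (SE 0.38, adjusted p = 2.06e-08). Without the library labelled siCTU2 TCHX 5 h replicate 3, also chosen after seeing the data, it was 3.49 in siCTU2.

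PFKFB4 had effects of 2.39 (SE 0.21), 2.12 (SE 0.18), 1.77 (SE 0.22) and 2.31 (SE 0.19) in the same order, and 2.15 in mQ without mQ T 5 h replicate 3. At 3 h with cycloheximide, 91.2% ± 2.04 remained in siCTU2, 72.9% ± 12.3 in siGL2 and 72.9% ± 1.92 in mQ (SD, n = 3). In pQ it was 63.1%, 64.0% and 155%, where the last value is relative to pQ TCHX 0 h replicate 3, with 56.7 CPM against 91.5 and 86.0 CPM in the other 0 h libraries. The contrast for cycloheximide sets the arms against each other at 3 and 5 h and does not use the 0 h level.

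PFKFB3 had effects of 1.23 (SE 0.20), 1.22 (SE 0.28) and 1.1 (SE 0.24) in siCTU2, siGL2 and pQ. In mQ it was 0.80 (SE 0.27) and did not pass (adjusted p = 0.0936), and without mQ T 5 h replicate 3 it was 1.22 (SE 0.18) and passed (adjusted p = 5.19e-05). VEGFA had 0.58 (SE 0.18, adjusted p = 0.0288) in siCTU2, 0.47 (SE 0.26, adjusted p = 0.357) in siGL2, 0.85 (SE 0.22, adjusted p = 0.0305) in mQ and 0.74 (SE 0.24, adjusted p = 0.0506) in pQ. Without replicate 3 at 5 h in both arms, which stood apart in several conditions, VEGFA passed in all 4 conditions, with effects of 0.44 to 0.93. That choice was made after seeing the data. With all libraries, the call for VEGFA in siCTU2 was lost with TMM scaling (adjusted p = 0.0539), with genes stable at both times (0.0527), at 5 h alone (0.158) and with the 0 h difference subtracted (0.317). It was also lost without replicate 1 (0.331) or 3 (0.106). The call for PFKFB3 was lost in siGL2 without replicate 1 (0.247) or 2 (0.0666) and with the 0 h difference subtracted (0.338), and in pQ in the same 3 cases (0.101, 0.0893 and 0.0808). At 3 h alone, ADM and PFKFB4 passed in all 4 conditions and PFKFB3 and VEGFA in none. In mQ, ADM (adjusted p = 0.0495) and VEGFA (0.0529) lay close to the threshold there. Of all genes, 590 of 13638 in siCTU2, 461 of 13161 in siGL2, 46 of 13442 in mQ and 380 of 13347 in pQ passed at 3 h alone. With all libraries, the calls in mQ were lost without replicate 1 or replicate 2, with adjusted p for ADM of 0.347 and 0.521. The VEGFA call in mQ was also lost at 5 h alone (0.647) and with the 0 h difference subtracted (effect 0.41, adjusted p = 0.693). At 0 h VEGFA in mQ was already at 75.5 CPM in the TCHX arm and 56.5 CPM in the T arm.

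**Figure D4:**
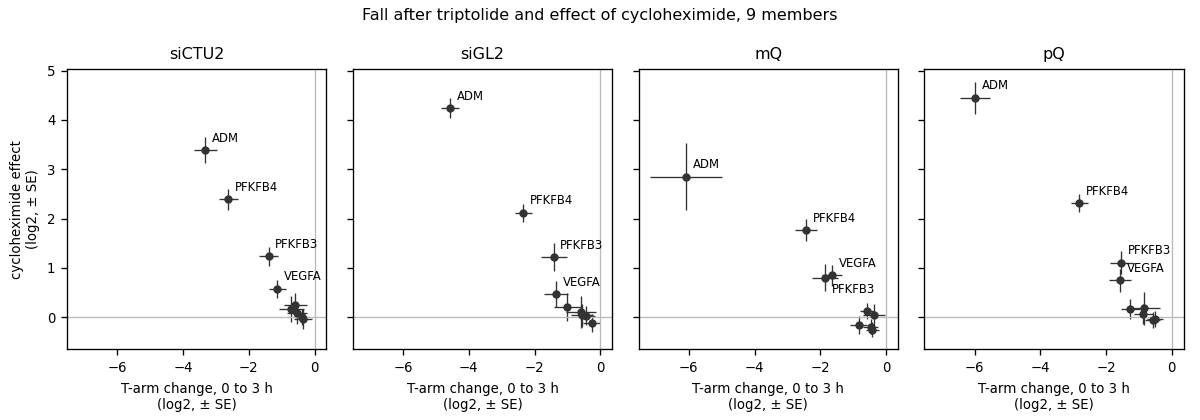
For 9 genes in each condition, the log2 change from 0 to 3 h in the T arm (horizontal axis) and the log2 effect of cycloheximide at 3 and 5 h (vertical axis), both ± SE from edgeR; the T arm libraries at 3 h enter both axes. ADM, PFKFB4, PFKFB3 and VEGFA are named, and the other 5 genes lie near 0 on the vertical axis, between -0.25 and 0.25.

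In each condition, more of HK2, SLC2A1, PDK1, BNIP3 and PGK1 than of ADM, PFKFB4, PFKFB3 and VEGFA remained at 3 h on average. At 3 h in the T arm, BNIP3 had 70.6% ± 6.76 to 77.9% ± 2.91 left (SD, n = 3), PGK1 had 66.7% ± 3.40 to 83.4% ± 5.996, SLC2A1 had 54.8% ± 4.21 to 70.1% ± 14.5 and HK2 had 55.5% ± 11.1 to 83.8% ± 29.9. PDK1 had the least left of these in siGL2, mQ and pQ, with 42.1% ± 7.58 in pQ. In siCTU2 PDK1 had 67.0% ± 11.2 left and HK2 had less, 62.1% ± 10.9. The log2 changes of these mRNAs, from -1.26 for PDK1 in pQ to -0.26 for PGK1 in siGL2, lay on both sides of the medians of all genes. PDK1 and SLC2A1 passed in mQ and pQ and PGK1 passed in pQ (adjusted p = 0.0392). Under TMM scaling SLC2A1 and PDK1 passed in neither, and the sign turned positive for SLC2A1 in mQ (0.15) and for PGK1 in pQ (0.12). From 0 to 3 h, BNIP3 and HK2 passed in no condition with all replicates and this scale. Both passed without replicate 3 in siGL2 and pQ, and, with a scale from genes stable at both times, in mQ and pQ. From 0 to 5 h, PDK1 passed in all 4 conditions, at -1.31, -1.60, -0.66 and -1.46 in siCTU2, siGL2, mQ and pQ. In siGL2 PDK1 fell more than VEGFA (-1.43), and in the other conditions less. HK2 also passed in siCTU2, SLC2A1 and PGK1 in siCTU2 and pQ, and BNIP3 in no condition. Of all genes, 8888 of 13638, 6387 of 13161, 6087 of 13442 and 7102 of 13347 passed. The median log2 changes of all genes from 0 to 5 h were -0.88, -0.72, -0.60 and -0.73 in siCTU2, siGL2, mQ and pQ. These 5 h tests include replicate 3 of the T arm, which stood apart, and were not run without it.

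The effects of cycloheximide on these 5 mRNAs were close to 0. They ranged from -0.25 (SE 0.14) for PGK1 in mQ to 0.25 (SE 0.24) for PDK1 in siCTU2, and none passed in any condition. BNIP3 passed in siCTU2 only when replicate 3 at 5 h was left out (-0.30, adjusted p = 0.0305). SLC2A1, for example, had effects of 0.08 (SE 0.21), 0.04 (SE 0.23), 0.12 (SE 0.16) and 0.06 (SE 0.20) in siCTU2, siGL2, mQ and pQ. PGK1 had 66.7% ± 3.40 left at 3 h without and 66.5% ± 3.39 with cycloheximide in pQ.

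**Figure D5:**
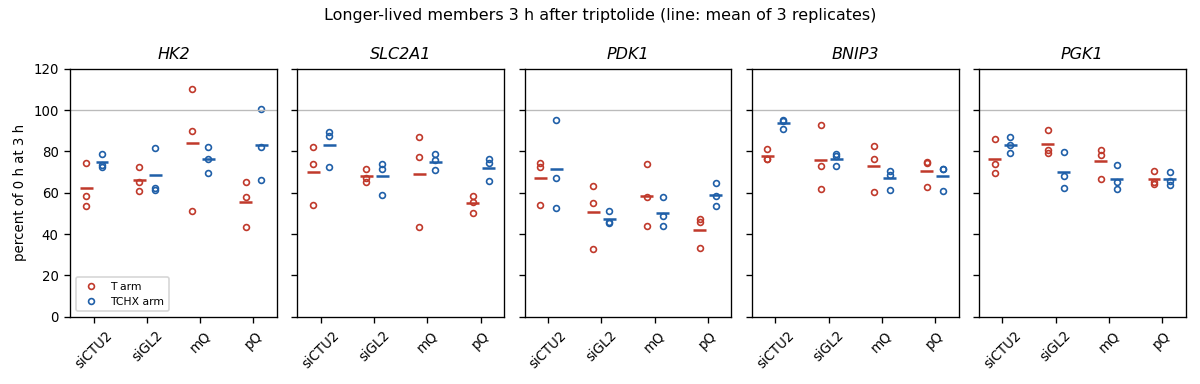
Percentage of the 0 h level left 3 h after triptolide (vertical axis, from 0) for HK2, SLC2A1, PDK1, BNIP3 and PGK1 in 4 conditions; circles are replicates, lines their mean, red the T arm and blue the TCHX arm. The arms overlap for most genes and conditions (not for HK2, SLC2A1 and PDK1 in pQ or BNIP3 in siCTU2), with means between 42.1% and 93.6%.

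The other genes of the HIF and glycolysis lists were counted in the same time courses. Cycloheximide raised 5, 4, 3 and 4 of 18 tested HIF targets in siCTU2, siGL2, mQ and pQ and lowered 0, where 21%, 12.1%, 5.12% and 12.3% of all genes were higher. The median log2 effects of the list were 0.13, -0.03, 0.03 and 0.07, and those of all genes 0.22, 0.05, 0.05 and 0.06. Cycloheximide raised 1, 0, 0 and 0 of 15 other glycolysis genes, and 0 of the 8 or 7 tested genes of the HIF pathway in each condition. For lactate and pyruvate handling 1, 1, 2 and 2 of 11 were higher.

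The study's own question was whether the conditions changed decay that depends on translation. The difference in T arm change between conditions passed for 0 of 9 genes in both experiments, and for 0% of all genes in edgeR. At an unadjusted p under 0.05, 414 genes of 14259 in the siRNA experiment and 356 of 14177 in the medium experiment differed. ADM was among the former, its fall being smaller in siCTU2 than in siGL2 by 1.25 on the log2 scale (SE 0.45, unadjusted p = 0.00988, adjusted p = 1). The difference in the effect of cycloheximide also passed for 0 of 9 genes, against 0.379% of all genes in the siRNA experiment and 0% in the medium experiment. It was -0.85 for ADM in siCTU2 against siGL2 (SE 0.34, adjusted p = 0.356), and -1.60 in mQ against pQ (SE 0.88, adjusted p = 1). The value for mQ includes mQ T 5 h replicate 3, with 36.1% of ADM left against 0.835% and 0.781% in the other replicates. Without that library the ADM effect in mQ, given above, was no longer smaller than that in pQ. Without replicate 3 at 5 h, chosen after seeing the data, 0 of 9 genes and 120 of 14477 genes passed in mQ against pQ.

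The translation-dependent decay (TDD) index measures how much more mRNA remained with cycloheximide than without it, as a fraction of the 0 h level. Averaged over 3 and 5 h, it was highest for ADM and PFKFB4 in siCTU2 and siGL2, while in pQ PFKFB4 was followed by PFKFB3 and ADM at about the same value. ADM had 0.577 ± 0.0636 in siCTU2, 0.481 ± 0.093 in siGL2, 0.311 ± 0.1 in mQ and 0.315 ± 0.0228 in pQ (SD, n = 3). PFKFB4 had 0.558 ± 0.0827, 0.448 ± 0.0472, 0.429 ± 0.129 and 0.503 ± 0.127. PFKFB3 ranged from 0.227 ± 0.250 in mQ to 0.368 ± 0.126 in siCTU2 and VEGFA from 0.151 ± 0.0755 in siGL2 to 0.259 ± 0.0247 in mQ. The medians of all genes were 0.103, 0.0256, 0.0248 and 0.0327 in siCTU2, siGL2, mQ and pQ. Replicate 3 includes the 3 libraries with blood cell markers. Without it (n = 2), the mQ means were 0.371 for PFKFB3, no longer the lowest of the 4 conditions, 0.504 for PFKFB4 and 0.365 for ADM. In pQ they were then 0.334, 0.429 and 0.302, so for these genes the order of mQ and pQ was reversed. The mean of PFKFB3 was then 0.299 in siCTU2 and 0.379 in siGL2, also in reversed order. The medians of all genes were 0.0611 in siCTU2, 0.0362 in siGL2, 0.0753 in mQ and 0.0187 in pQ. With all replicates, the other 5 genes lay between -0.125 and 0.102, with SDs up to 0.277.

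In the linear model of the TDD index, 0 of 9 genes differed between conditions at an unadjusted p of 0.05 or less, where 8.15% of 12263 genes did so in the siRNA experiment and 4.78% of 12395 in the medium experiment, and 0 genes in all passed after adjustment. In siCTU2 against siGL2 the largest differences were 0.10 (SE 0.05) for ADM and 0.11 (SE 0.061) for PFKFB4. In mQ against pQ they ranged from -0.11 (SE 0.085) for PDK1 to 0.09 (SE 0.084) for VEGFA.

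Finally, the patterns of these genes were compared over the 24 group means of log2(CPM + 1), which share libraries, depth and time points, as a description with no test. PFKFB3 and PFKFB4 had the highest correlation of any pair of the 9 genes (r = 0.888), followed by ADM and PFKFB4 (0.799) and PFKFB3 and PDK1 (0.773). VEGFA and BNIP3 had the lowest (-0.521). Among 9662 genes with at least 5 CPM on average, the nearest to ADM was CSRNP1 (r = 0.973), to PFKFB4 CSPP1 (0.970), to PFKFB3 AMD1 (0.972) and to VEGFA PLEKHH3 (0.960). The nearest to SLC2A1 was PRSS23 (0.978), to HK2 ANKFY1 (0.951), to PDK1 MAT2A (0.934), to BNIP3 MAGED1 (0.950) and to PGK1 ATP6V1E1 (0.876). No gene's nearest neighbour was another of the 9.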

How the data were processed

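Cytoplasmic RNA of A375 cells was measured in 72 QuantSeq libraries. The deposited values are raw counts per gene. The authors trimmed reads with fastp 0.20.1, mapped them to GRCh38.p13 with HISAT2 2.2.1 and counted them with HTSeq 0.13.5. The strand setting is not given in the sources used here, and molecular identifiers are not mentioned, so PCR duplicates may be among the counts. Totals ranged from 5987692 to 15534331 counts per library. The RNA was spiked with ERCC standards, and 0 of their names occur in the count table, so no scale was taken from them. There were 0 columns without a sample.

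Groups were taken from the sample titles. CPM were computed over all genes. At 0 h, T arm libraries were compared with edgeR 4.0.16 in R 4.3.3 (filterByExpr, TMM, quasi-likelihood test, Benjamini-Hochberg adjustment over all genes tested, threshold 0.05). Time courses were scaled, after the study's methods, to 198 (siRNA) and 82 (medium) stable genes. These had over 0.2 CPM at 0 h and at least 1.1 times their 0 h CPM at 3 or 5 h in every replicate and arm, so changes are relative to them. The TDD index was computed on the same scale as the TCHX arm level minus the T arm level over the 0 h level. Its linear model had terms for replicate, condition and time, in genes with at least 10 normalised counts at 0 h. The alternatives were other scaling, filters, times and tools, and leaving out replicates. DESeq2 1.42.0 was one of them. The scripts were tested on simulated data. Motifs were read from GENCODE v44 and RefSeq sequences, matched by symbol.

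Text names all 10 genes, HIF1A, EPAS1, ARNT, up to 4 called genes per list and comparison by size of change, and the gene nearest to each member. The members, lists and this rule were chosen with earlier results of these data known.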

Additional observations from a re-analysis of the deposited data

Results flagged for a closer look

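The responses to CTU2 knock-down and to glutamine withdrawal differed for 4 of the 9 genes at 0 h in the T arm, by the edgeR test of the difference itself. The log2 fold change in siCTU2 against siGL2 minus that in mQ against pQ was 1.35 for SLC2A1 (0.63 and -0.72 in the separate fits). It was -1.20 for VEGFA (0.39 and 1.59). PFKFB4 had a difference of -0.85 (-0.66 and 0.18), and BNIP3 had 0.58 (0.02 and -0.56). In the TCHX arm libraries collected at 0 h, the differences were 0.90 for SLC2A1, -1.64 for VEGFA and -1.54 for PFKFB4, which all passed, and 0.26 for BNIP3, which did not (adjusted p = 0.324). The call for BNIP3 was also lost without any 1 of the 3 replicate numbers, and that for VEGFA without replicate 1 or replicate 3.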

How the results depend on the processing

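The falls of ADM and PFKFB4 in the T arm passed in every alternative run. Their cycloheximide effects were lost in mQ at 5 h alone, with the 0 h difference subtracted and without replicate 1 or 2 (adjusted p from 0.08 to 0.745), and passed in every other alternative and condition. Over 1179 values of single genes under an alternative, 1055 kept their direction or were uncalled in both fits, 69 lost a call, 53 gained one and 2 changed sign from a call. In 112 of the 1055 the sign changed with no call in either fit. The 2 changes of sign came with TMM scaling in the T arm: SLC2A1 in mQ (0.15) and PGK1 in pQ (0.12).

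The number of the 9 genes called changed by more than 1.5 times in these cases, and the cause was not tested. For mQ against pQ at 0 h it was 2 in the TCHX arm (810 of 12521 genes in all). It was 4 in the T arm (3071 of 12374) and 4 in the TCHX arm without pQ replicate 3 (2555 of 12715). For the difference between responses it was 7 in the TCHX arm (4149 of 12950 genes in the T arm and 3067 of 13194). It was 2 to 3 without 1 replicate (4 with all). It was 2 without replicate 1 (1862 of 13253 genes) or 3 (3487 of 13040) and 3 without replicate 2 (3206 of 13019). For the T arm change in siCTU2 (4) it was 7 with genes stable at both times and 8 for 5 h against 0 h (5069, 8210 and 8888 of 13638 genes in all). It was 2 to 6 without 1 replicate: 2 without replicate 1 (1182 of 13861 genes) and 6 without replicate 3 (5892 of 13619). In siGL2 (4) it was 7 with genes stable at both times (3904 and 8375 of 13161 genes). It was 2 without replicate 1 (1396 of 13391 genes) or 2 (1277 of 13292) and 8 without replicate 3 (6171 of 13174). In mQ (6) it was 3 with TMM scaling (7599 and 981 of 13442 genes), and in pQ (7) it was 2 with TMM scaling (7510 and 1224 of 13347 genes). In pQ it was 4 to 9 without 1 replicate: 4 without replicate 1 (3272 of 13544 genes) and 9 without replicate 3 (8621 of 13378). For the effect of cycloheximide it was 2 in siCTU2 at 3 h alone (4, with 590 and 2881 of 13638 genes). In mQ (3, with 704 of 13442 genes) it was 0 at 5 h alone (31 genes) and 0 with the 0 h difference subtracted (1 gene). It was 0 to 4 without 1 replicate: 0 without replicate 1 (2 of 13645 genes) or 2 (1 of 13352), and 4 without replicate 3 (3286 of 13418). For the TDD index (0) it was 0 to 1 without 1 replicate in both experiments, 1 without replicate 2 in each, and 1 with TMM scaling in mQ against pQ.

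No comparison had correlations over 0.1 for every pair of same-numbered libraries, so the main edgeR fits did not pair libraries by number. The percentages left and the TDD index did combine same-numbered libraries, and the TDD model had a term for replicate. Column names in the count table shared a prefix for each replicate number across conditions. At 0 h the correlations were 0.0836, 0.174 and 0.262 in the siRNA experiment and 0.112, -0.145 and -0.138 in the medium experiment. For the time courses, only the lowest correlation of any pair of libraries with the same replicate number is given. For replicates 1 to 3 it was 0.0325, 0.149 and 0.243 in siGL2 and -0.00441, 0.184 and 0.239 in pQ. In siCTU2 and mQ these lowest values lay between -0.484 and 0.0237, and a single library can set them. With the replicate block, 7 and 4 genes were called at 0 h as without it, 4 for the difference between responses, 4, 5, 6 and 9 for the T arm change in siCTU2, siGL2, mQ and pQ, 4, 3, 3 and 4 for cycloheximide (adding PDK1 in siGL2, HK2 and BNIP3 in pQ, and VEGFA with cycloheximide in pQ), and 0 for all differences between conditions. Of 13638, 13161, 13442 and 13347 genes in siCTU2, siGL2, mQ and pQ, 5522, 5030, 7826 and 9340 passed for the T arm change with the block. Without it 5069, 3904, 7599 and 7510 passed. For cycloheximide 2973, 1992, 1009 and 2177 passed with the block and 2881, 1670, 704 and 1701 without it. Without the block, the TDD index gave 0 in both experiments. Low counts of ADM after triptolide limit the size of its fall.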
